A study of Mus musculus with 16 samples.

Results

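The keratin genes of the mouse lie in 2 clusters, with the type I genes on chromosome 11 and the type II genes on chromosome 15, and their chromatin accessibility was described here in mouse embryonic stem (ES) cells. The genes were all protein-coding genes of the GENCODE M21 annotation on these chromosomes whose names start with Krt, apart from Krt8 and Krt18. This gave 74 of the 21938 protein-coding genes on chromosomes 1 to 19, X and Y. Of these, 50 were on chromosome 11, among them 23 keratin-associated protein genes (names starting with Krtap), and 24 were on chromosome 15. An accessible region was assigned to a gene when its centre lay in the gene body or within 5 kb of a transcription start site (TSS) of the gene, and 27 of the 81132 regions of the merged list met this rule for a keratin gene.

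The cells were SBROS cells, a CGR8 ES line with reporters for Sox1 and Brachyury in which both Sox2 alleles carry a SNAP tag and 1 Oct4 allele a HALO tag. They were grown with fetal bovine serum, leukemia inhibitory factor, the GSK3 inhibitor CHIR99021 and the MEK inhibitor PD184352. Cells in the G1 phase were sorted by SOX2-SNAP and OCT4-HALO level into 4 populations that share this genotype and medium: SHOH (both high), SHOL (SOX2 high, OCT4 low), SLOH (SOX2 low, OCT4 high) and SLOL (both low). ATAC-seq, in which the Tn5 transposase cuts and tags open chromatin, was done on 3 replicates of each population, and the regions called in the 12 libraries were merged into 1 list. This list holds the position of each region and no read count, score or library of origin, so that the populations could not be compared, the reads behind each region are not known, and a region may have been called in 1 library or in 12.

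Keratins form the intermediate filaments of epithelial cells from obligate pairs of a type I and a type II protein. Simple epithelia and the trophectoderm use mainly Krt8 with Krt18 and Krt19, the basal layer of stratified epithelia Krt5 with Krt14, the differentiating epidermis Krt1 with Krt10, and the hair follicle has its own hair and inner root sheath keratins, whose filaments are embedded in keratin-associated proteins.

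To show what the sequence at these regions looks like, stretches at 9 keratin regions were read from the mm10 genome. Each lies in the 300 bp around a region's centre, is written 5′ to 3′ on the plus strand, and holds no annotated UTR base. At Krt13 and Krt23 the stretch runs past the edges of the region, which is 159 bp and 208 bp wide. All 9 genes are transcribed from the minus strand. The first 4 were chosen because they hold the octamer bound by OCT4 (ATGCAAAT) or the core bound by SOX factors (CCATTGT or CCTTTGT), the factors by which the cells were sorted, and capitals mark these letters on either strand.
Krt222 promoter, chr11:99244086-99244295: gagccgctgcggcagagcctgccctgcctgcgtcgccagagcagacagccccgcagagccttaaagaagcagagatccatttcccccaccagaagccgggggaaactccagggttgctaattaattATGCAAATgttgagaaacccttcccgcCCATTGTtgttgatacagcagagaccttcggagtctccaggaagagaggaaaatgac
Krt28 intron 5, chr11:99369327-99369626: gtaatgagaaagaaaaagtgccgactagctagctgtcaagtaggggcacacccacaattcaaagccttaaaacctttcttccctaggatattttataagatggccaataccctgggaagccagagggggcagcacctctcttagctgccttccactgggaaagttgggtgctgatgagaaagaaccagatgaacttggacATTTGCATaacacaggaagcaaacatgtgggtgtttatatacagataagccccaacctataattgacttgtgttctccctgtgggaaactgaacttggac
Krt23 promoter, chr11:99493568-99493867: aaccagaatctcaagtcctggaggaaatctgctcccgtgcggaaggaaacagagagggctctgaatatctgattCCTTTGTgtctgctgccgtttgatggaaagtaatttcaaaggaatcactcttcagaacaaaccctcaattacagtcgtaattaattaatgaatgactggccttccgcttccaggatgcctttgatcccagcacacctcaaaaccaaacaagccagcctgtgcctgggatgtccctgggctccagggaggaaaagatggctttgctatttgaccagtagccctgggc
Krt13 intron 6, chr11:100118327-100118626: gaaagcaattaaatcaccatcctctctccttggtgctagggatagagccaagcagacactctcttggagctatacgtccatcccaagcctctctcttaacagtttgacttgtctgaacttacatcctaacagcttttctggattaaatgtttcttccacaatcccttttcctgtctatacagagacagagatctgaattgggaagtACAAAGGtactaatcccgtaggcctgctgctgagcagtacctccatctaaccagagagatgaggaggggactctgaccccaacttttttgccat
The Krt222 stretch held both motifs, with 19 bases between them and the octamer 130 bp upstream of the TSS. Its SOX core overlapped by 2 bases a match to the KLF/SP letters described next.

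A second set shows the G and C rich regions at the promoter of Krt87 and in the exons of Krt10, Krt1, Krt4 and Krt71, and capitals mark the letters CCGCCC, bound by KLF and SP factors, or GCCNNNGGC, bound by AP-2 factors, on either strand.
Krt87 promoter, chr15:101438805-101438982: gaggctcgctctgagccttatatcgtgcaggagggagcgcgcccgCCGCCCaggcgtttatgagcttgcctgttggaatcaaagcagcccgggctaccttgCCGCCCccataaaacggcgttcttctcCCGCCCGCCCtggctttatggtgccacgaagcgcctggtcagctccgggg
Krt10 exon 7, chr11:99386058-99386357: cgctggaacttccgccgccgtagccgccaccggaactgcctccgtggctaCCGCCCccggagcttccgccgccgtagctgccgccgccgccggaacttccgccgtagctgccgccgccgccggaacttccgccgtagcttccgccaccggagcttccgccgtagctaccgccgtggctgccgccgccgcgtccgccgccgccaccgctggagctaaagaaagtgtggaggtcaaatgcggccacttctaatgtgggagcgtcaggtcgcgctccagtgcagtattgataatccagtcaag
Krt1 exon 9, chr15:101845939-101846238: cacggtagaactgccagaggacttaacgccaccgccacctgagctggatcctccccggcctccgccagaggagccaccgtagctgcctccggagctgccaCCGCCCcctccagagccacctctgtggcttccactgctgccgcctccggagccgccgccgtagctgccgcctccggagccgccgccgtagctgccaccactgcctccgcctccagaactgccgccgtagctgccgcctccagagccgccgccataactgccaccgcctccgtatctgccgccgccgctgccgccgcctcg
Krt4 exon 1, chr15:101924324-101924623: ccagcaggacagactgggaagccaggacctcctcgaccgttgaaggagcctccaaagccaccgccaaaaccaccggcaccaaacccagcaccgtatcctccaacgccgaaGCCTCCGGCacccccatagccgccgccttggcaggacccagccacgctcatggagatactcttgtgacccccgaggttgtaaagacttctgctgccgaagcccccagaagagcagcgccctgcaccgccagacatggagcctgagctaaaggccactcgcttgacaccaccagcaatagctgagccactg
Krt71 exon 1, chr15:101742626-101742925: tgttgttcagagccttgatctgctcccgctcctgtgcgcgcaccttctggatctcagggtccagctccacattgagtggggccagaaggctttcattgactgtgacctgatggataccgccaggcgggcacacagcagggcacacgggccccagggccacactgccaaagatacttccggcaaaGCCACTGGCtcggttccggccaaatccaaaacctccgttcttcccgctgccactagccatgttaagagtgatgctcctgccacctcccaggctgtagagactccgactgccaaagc
The Krt87 promoter held the KLF/SP letters 4 times, at 48 to 135 bp upstream of the TSS, of which the last 2 overlapped each other by 2 bases. The Krt10, Krt1, Krt4 and Krt71 stretches are mainly coding sequence of the first exons or of the exons near the 3′ end, which in many keratins encode the head and tail domains on either side of the central rod.

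Most keratin genes had no accessible region. A region was assigned to 20 of the 74 genes, or 27% (95% Wilson interval 18.2% to 38.1%), whereas the same rule found one for 17110 of the 21938 protein-coding genes, or 78%. With the TSS limit at 10 kb the counts were 31 of 74 (41.9%, 31.3% to 53.3%) and 81.1% of all protein-coding genes. All intervals cover counting error only, and no difference from the background was tested. Longer genes can hold more regions, so the genes were also set beside genes of like length. The 51 keratin genes proper are 2812 to 22719 bp long, and 20 of them had a region (39.2%, 27% to 52.9%), beside 71.5% of the 11529 protein-coding genes of 2 to 25 kb. The 23 keratin-associated protein genes are 593 to 1888 bp long, and 0 of them had a region (upper limit 14.3%), beside 42.1% of the 1588 protein-coding genes under 2 kb. With the TSS limit at 5 kb the list therefore held regions at keratin genes of several kinds but at none of the 23 genes named Krtap on chromosome 11.

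**Figure D1:**
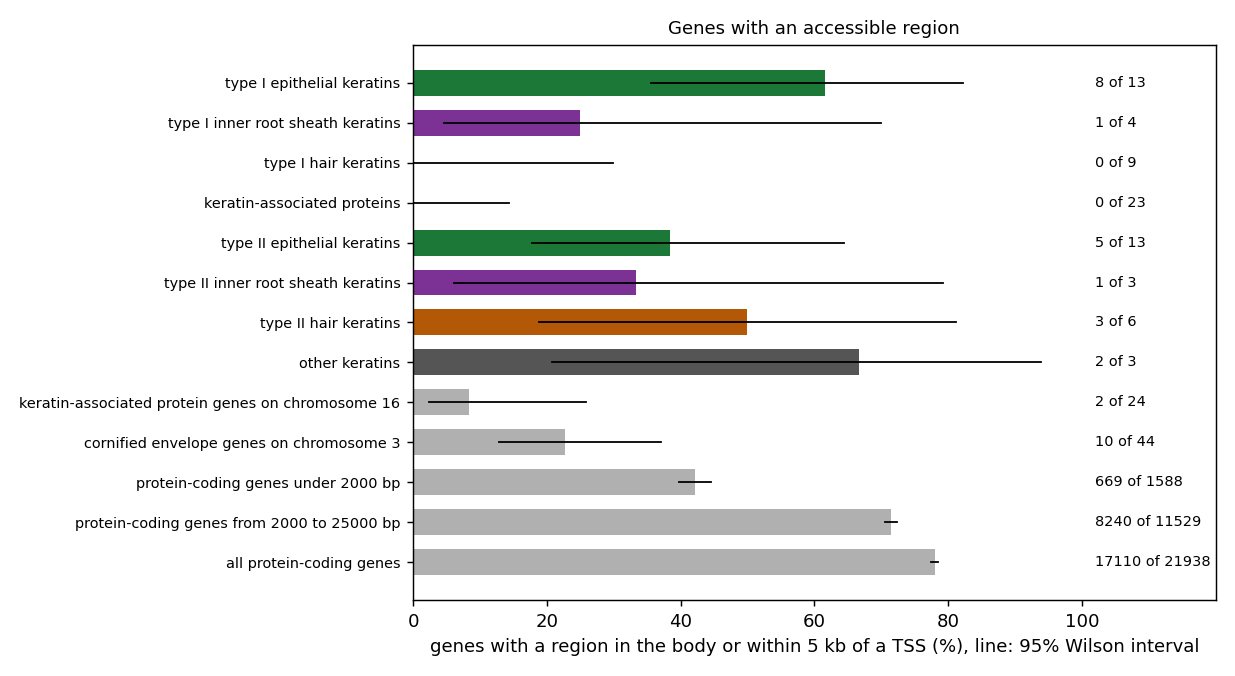
Percentage of genes with an accessible region in the gene body or within 5 kb of a TSS, for the keratin groups (coloured) and comparison sets (grey), with 95% Wilson intervals as lines and the counts at the right. Type I epithelial keratins reached 8 of 13 genes, type I hair keratins 0 of 9 and keratin-associated proteins 0 of 23, and all protein-coding genes 17110 of 21938.

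The type I epithelial keratins had regions at 8 of 13 genes (61.5%, 35.5% to 82.3%), an interval that includes the 71.5% of genes of 2 to 25 kb. At 10 kb they had regions at 11 of 13 (84.6%, 57.8% to 95.7%), beside 75.8% of genes of that length. Krt42, a close relative of Krt17 described in the nail, had 3 regions, and Krt23, Krt19 of simple epithelia, Krt14 of basal keratinocytes and Krt17 of skin appendages and wounded epidermis had 2 each. Krt10 of the suprabasal epidermis, Krt12 of the corneal epithelium and Krt13 of the mucosal epithelia had 1 each. Krt24, Krt20 of the intestinal and urothelial lining, Krt15 of basal cells and the hair follicle bulge, Krt9 of palm and sole skin, and Krt16, which is induced by wounding, had none. Krt17 and Krt42 are neighbours and shared 2 regions, which were counted once in the total of 17 regions for chromosome 11.

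On chromosome 15 the type II epithelial keratins had regions at 5 of 13 genes (38.5%, 17.7% to 64.5%), each with 1. These were Krt80, Krt7 of ductal and simple epithelia, Krt1, the epidermal partner of Krt10, Krt77 of the sweat glands, and Krt4, the partner of Krt13. The genes with none were Krt5, the partner of Krt14, the wound-induced Krt6a and Krt6b, Krt2 of the upper epidermis, Krt75 of the hair follicle companion layer, Krt76, Krt78 and Krt79. Regions were thus listed for both genes of the pairs Krt1 with Krt10 and Krt4 with Krt13, and for Krt14 but not Krt5. The interval for the 5 of 13 genes lay below the 71.5% of protein-coding genes of 2000 to 25000 bp. At 10 kb the type II epithelial keratins had regions at 6 of 13 genes (46.2%, 23.2% to 70.9%), which added Krt79. This stands beside 75.8% of genes of that length, and neither difference was tested.

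Keratins of the hair follicle differed between the clusters in their counts. The inner root sheath keratins had regions at 1 of 4 genes on chromosome 11, where Krt28 had 4 regions and Krt25, Krt26 and Krt27 had none, and at 1 of 3 genes on chromosome 15, where Krt71 had 1 and Krt72 and Krt73 had none. For the hair keratins proper, 0 of 9 type I genes had a region (upper limit 29.9%), namely Krt31, Krt32, Krt33a, Krt33b, Krt34, Krt35, Krt36, Krt39 and Krt40, while 3 of 6 type II genes did (50%, 18.8% to 81.2%), namely Krt83, Krt86 and Krt87 but not Krt81, Krt82 and Krt84. These intervals overlap and the difference was not tested. The counts of these 4 groups are to be set beside the 71.5% of genes of 2 to 25 kb with a region. At 10 kb the hair keratins had regions at 1 of 9 type I and 4 of 6 type II genes, beside 75.8% of genes of that length. The inner root sheath keratins at 10 kb had regions at 1 of 4 type I and 2 of 3 type II genes. Of the remaining 3 genes, Krt222 and Krt88 had 1 region each and Krt90 had none.

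The 23 keratin-associated protein genes without a region were Krtap1-3, Krtap1-4 and Krtap1-5, Krtap2-4, Krtap3-1, Krtap3-2 and Krtap3-3, Krtap4-1, Krtap4-2, Krtap4-6, Krtap4-7, Krtap4-8, Krtap4-9, Krtap4-13 and Krtap4-16, Krtap9-1, Krtap9-3 and Krtap9-5, Krtap16-1, Krtap17-1, Krtap29-1, Krtap31-1 and Krtap31-2. Many of these proteins are rich in cysteine and crosslink the hair keratin filaments. The median distance from their TSSs to the nearest region was 23881 bp, with the largest, 153353 bp, at Krtap4-16. With the limit for the TSS widened to 10 kb, 4 of the 23 had a region, namely Krtap1-4, Krtap1-5, Krtap3-1 and Krtap4-6 (17.4%, 6.98% to 37.1%), beside 51.4% of protein-coding genes under 2 kb.

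Within the clusters the regions were spaced unevenly. The chromosome 11 cluster spans 1037 kb from Krt222 to Krt42 and held 30 regions, or 28.9 per Mb. This compares with 82 and 84 per Mb in the 1 Mb before and after it and with 40.0 per Mb over the sequenced part of the chromosome. The stretch from Krt222 to Krt40 had 48.3 regions per Mb, the keratin-associated protein part 6.76 per Mb, with 3 regions in 444 kb, and the stretch from Krt33a to Krt42 again 42.5 per Mb. On chromosome 15 the cluster spans 607 kb from Krt80 to Krt78 and held 15 regions, or 24.7 per Mb, beside 87 and 90 per Mb in its flanks and 31.3 per Mb over the chromosome. Both clusters thus had fewer regions per Mb than the sequence on either side and than their chromosome, and on chromosome 11 the lowest value was that of the keratin-associated protein part. With 50 kb added on each side the densities were 37.8 and 36.8 per Mb, the second of which is above that of chromosome 15. Regions covered 0.895% of the chromosome 11 cluster and 0.892% of the chromosome 15 cluster, against 1.7% and 1.33% of the chromosomes.

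**Figure D2:**
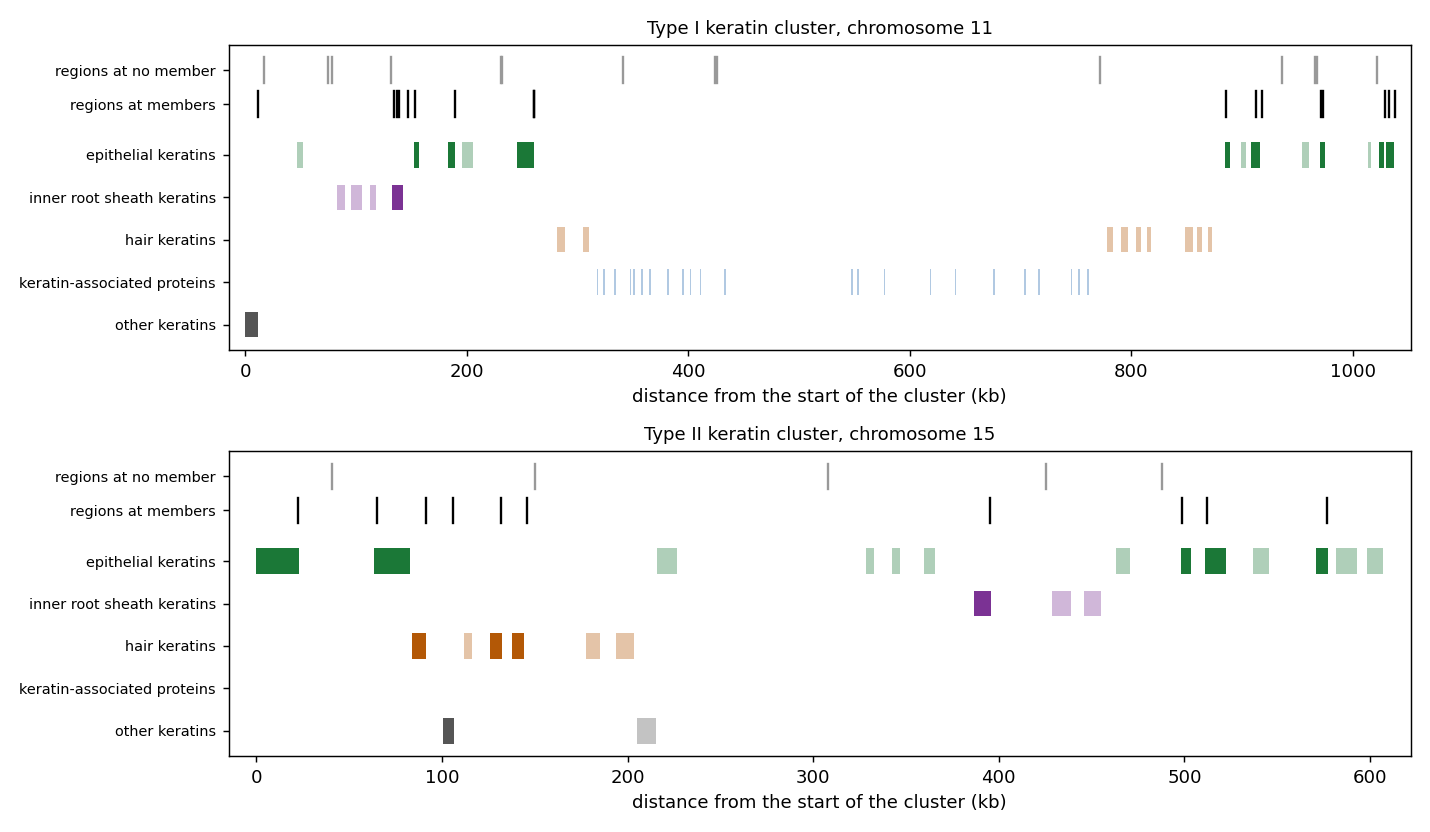
Map of the chromosome 11 (top) and chromosome 15 (bottom) clusters by distance from the cluster start in kb, with the genes as bars by group (dark with, pale without a region; bars of short genes are drawn at least 1.5 kb wide) and the regions as ticks, black at keratin genes and grey elsewhere. On chromosome 11 an empty stretch of 346 kb holds 12 of the 23 keratin-associated protein genes and 12 other protein-coding genes, which are not drawn.

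The longest stretch without a region in the chromosome 11 cluster was 346 kb, at chr11:99658734-100004809. It held 12 keratin-associated protein genes and 12 other protein-coding genes. On chromosome 11, 17 of the 4743 intervals between neighbouring regions were at least as long, itself included. The next, of 113 kb, held the 7 hair keratin genes from Krt33a to Krt36. On chromosome 15 the longest was 158 kb, at chr15:101497416-101655505, with Krt84, Krt82, Krt90, Krt75 and 3 other protein-coding genes, and 122 of the 3148 intervals on that chromosome were at least as long. It was followed by 86.9 kb with Krt6b, Krt6a and Krt5. In bins of 50 kb, 8 of the 21 bins that begin in the chromosome 11 cluster and 3 of the 13 in the chromosome 15 cluster were empty, whereas each flank of 20 bins had 1 empty bin.

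**Figure D3:**
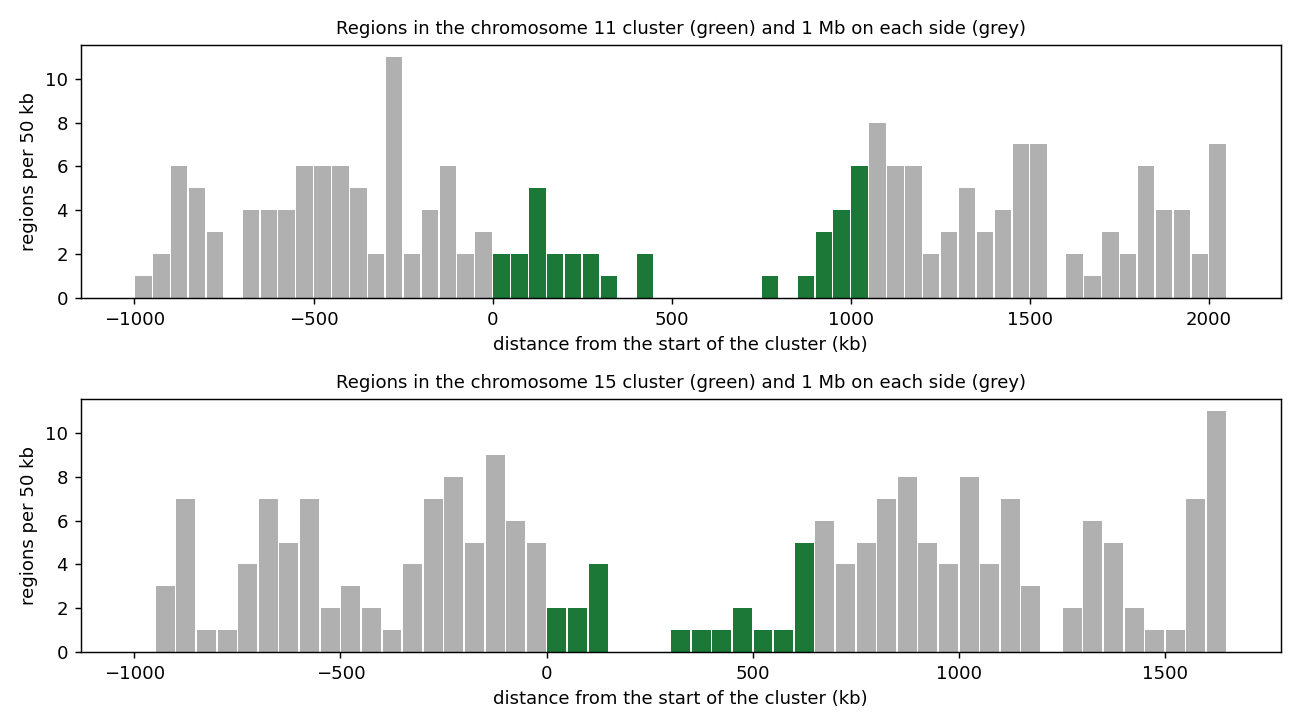
Number of accessible regions in bins of 50 kb by distance from the cluster start in kb, in the chromosome 11 (top) and chromosome 15 (bottom) clusters (green; the last green bin runs past the cluster's end) and in 1 Mb on each side (grey). The median bin held 1 region in both clusters and 4 to 5 in the flanks.

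The genes next to the clusters included some with wide regions. Smarce1, a chromatin remodelling subunit encoded next to Krt222, had a region of 1169 bp at its promoter (chr11:99229942-99231110), and Eif1, a translation initiation factor encoded beyond Krt42, had one of 1530 bp (chr11:100319544-100321073). The first protein-coding gene before Krt80, 6030408B16Rik, had no region. On the other side Krt78 is followed by Krt8 and Krt18, the keratins of simple epithelia and trophectoderm, with 2 regions each, and then by Eif4b with 2. The 77.7 kb from the end of Krt78 to the end of Krt18 held 11 regions, 141 per Mb, beside 24.7 per Mb in the cluster itself. At Krt8 the regions were centred 86 bp (351 bp wide) and 1274 bp (607 bp wide) downstream of the TSS, and at Krt18 137 bp downstream (624 bp wide) and 2763 bp upstream (195 bp wide).

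Few keratin genes had a region at their own promoter, taken as 1000 bp upstream to 100 bp downstream of any TSS. This was so for 5 of 74 genes (6.76%, 2.92% to 14.9%), namely Krt222, Krt10, Krt23, Krt80 and Krt87, beside 57.7% of all protein-coding genes. Measured from the 5′ end of the gene, the nearest region lay within 1 kb for 7 of 74 genes (9.46%), against 62.7% of all protein-coding genes, and the median distance was 11251 bp for the keratins proper of chromosome 11 and 14728 bp for those of chromosome 15, against 294 bp. The promoters also differed from the average in base composition. A promoter was called CpG-rich when the 500 bp around the 5′ TSS had a G + C content of at least 50% and a CpG frequency of at least 0.6 of that expected from the base content. This held for 3 of 74 keratin genes (4.05%, 1.39% to 11.3%), namely Krt27, Krt28 and Krt87, beside 47.6% of all protein-coding genes. Of the CpG-rich promoters in the genome 85.5% had a region and of the others 32.4%, while 1 of the 3 CpG-rich keratin promoters, that of Krt87, had one (33.3%), and 4 of the 71 others (5.63%), of which that of Krt10 counts only through an internal TSS. With a window of 1000 bp no keratin promoter was CpG-rich.

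The region at the Krt87 promoter was 642 bp wide, at chr15:101438513-101439154, centred 29 bp upstream of the TSS, with a G + C content of 66.0%. At Krt222 it was 582 bp wide (chr11:99243856-99244437), centred 61 bp upstream. At Krt80 a region of 228 bp (chr15:101369959-101370186) was centred in the noncoding part of exon 1, 90 bp downstream of the TSS. Krt23 had a pair of narrow regions upstream, of 181 bp (chr11:99493350-99493530) and 208 bp (chr11:99493615-99493822), centred 303 bp and 581 bp from the TSS. The widest keratin region, 860 bp at chr11:99385779-99386638, was counted as promoter of Krt10 only through an internal TSS of a shorter transcript. It was centred in coding exon 7 of 8, 3156 bp downstream of the 5′ end of Krt10. The 713 bp region of Krt7 (chr15:101412228-101412940) was centred in coding exon 1, 1541 bp from the gene's 5′ end, and fell into the promoter of the antisense gene Gm671. Its centre lay 135 bp downstream of another annotated TSS of Krt7, just outside the limit of 100 bp for its own promoter.

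Inside the genes the regions were often exonic. Among all 27 regions, 8 were centred in a promoter of any annotated gene (29.6%, 15.9% to 48.5%), 8 in an exon (29.6%, 15.9% to 48.5%), 6 in an intron (22.2%, 10.6% to 40.8%) and 5 between genes (18.5%, 8.18% to 36.7%). Over the whole list the shares were 21%, 8.76%, 35.1% and 35.2%. The clusters differed in this, with 5 of 10 regions exonic and 0 intronic on chromosome 15 and 3 of 17 exonic and 6 intronic on chromosome 11. This difference was not tested.

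With each gene represented by its protein-coding transcript with the most exons, 18 regions were centred in a keratin transcript. The first exon held 5 of them (27.8%), in Krt12, Krt80, Krt7, Krt71 and Krt4, and the last exon 4 (22.2%, 9.0% to 45.2%), in Krt88, Krt86, Krt1 and Krt77. Inner exons held 3 (16.7%), of which 2 in Krt28 and 1 in Krt10, and introns 6 (33.3%). In the 9567 protein-coding genes of 2 to 25 kb with at least 3 exons, 29.8% of the regions inside transcripts were in the first exon, 9.93% in inner exons, 8.23% in the last exon and 52.1% in introns. The exons make up 6.76% (first), 11.4% (inner) and 9.56% (last) of the keratin transcripts' length, and 2.12%, 7.40% and 11% of the length in those genes. With the gene body divided into 3 equal parts, 5 of the 18 regions lay in the 5′ part, 5 in the middle and 8 in the 3′ part (44.4%, 24.6% to 66.3%), beside 60.2%, 19.2% and 20.6% in the genes of that length. The clusters differed in this count, with 1, 5 and 4 of 10 regions in the 5′, middle and 3′ parts on chromosome 11 and 4, 0 and 4 of 8 on chromosome 15, where the share in the 5′ part was 50% (21.5% to 78.5%). This difference was not tested.

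**Figure D4:**
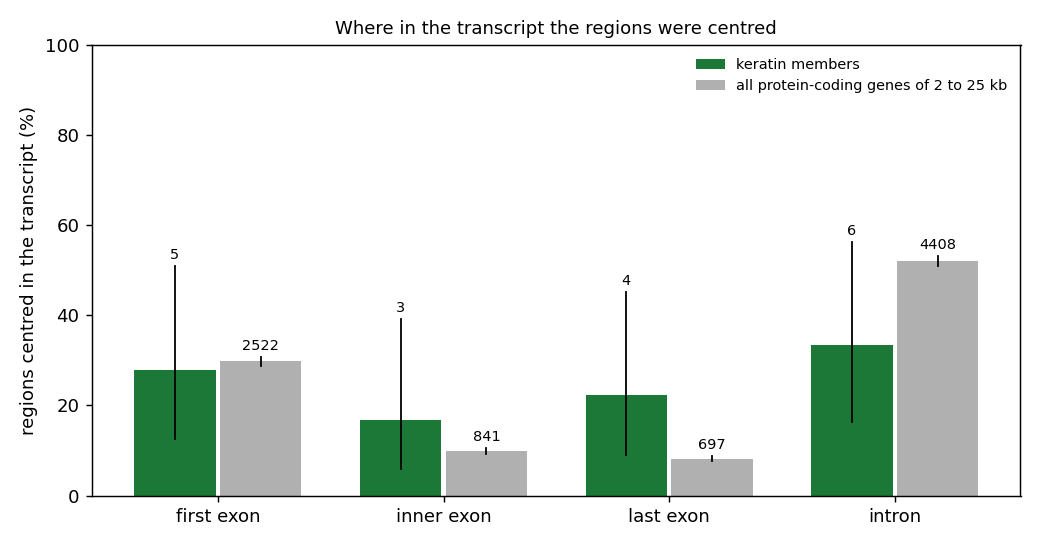
Percentage of regions centred in the first, inner and last exons and in introns of keratin transcripts (green, 18 regions) and of protein-coding genes of 2 to 25 kb with at least 3 exons (grey, 8468 regions), with 95% Wilson intervals as lines and counts above. The last exon held 4 of the 18 keratin regions and 697 of the 8468 others.

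Of the 8 regions in the 3′ part of a gene, 6 had a G + C content above the median of the list, 51.9%, and those in introns of Krt14 (49.4%) and Krt13 (41.5%) were below it. The 3′ region of Krt28, in coding exon 6, had 55.9%. The region of Krt1, at chr15:101845880-101846299, was 420 bp wide and centred in coding exon 9 of 9, 87.6% of the way along the gene, and had a G + C content of 67.4% and a CpG frequency of 0.789 of that expected. The Krt10 region had a G + C content of 56.4% and a CpG frequency of 0.995 of that expected. In Krt86 the region was 271 bp wide (chr15:101479313-101479583), with a G + C content of 64.9%, in coding exon 9 of 9 and in the promoter of the noncoding gene Gm49501. Krt77 had one of 385 bp (chr15:101859590-101859974) in the noncoding part of exon 9, with 55.1%, and Krt88 one of 224 bp (chr15:101453423-101453646) in coding exon 5 of 5, with 60.7%. Krt1, Krt10, Krt86, Krt77 and Krt88 had no other region, including at the 5′ end.

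First exons were marked in 3 stratified epithelium and hair follicle genes that had no region upstream. In Krt12 the region was 233 bp wide (chr11:99421986-99422218), centred 157 bp downstream of the TSS, in Krt4 357 bp (chr15:101924296-101924652), at 261 bp, and in Krt71 380 bp (chr15:101742587-101742966), at 333 bp. All were centred in coding sequence, with G + C contents of 59.7%, 61.6% and 59.2%.

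Intronic and upstream regions were found mainly on chromosome 11. In Krt28, regions of 329 bp and 171 bp were centred in coding exons 6 and 5, one of 312 bp in intron 5 (chr11:99369322-99369633), and one of 441 bp 4892 bp upstream (chr11:99379575-99380015), with a G + C content of 38.3% and a match to the CTCF core. In Krt14 the regions were 162 bp and 174 bp wide, in introns 2 and 7, and in Krt13 159 bp, in intron 6. Krt19 had one of 431 bp in intron 1 (chr11:100144950-100145380) and one of 142 bp 1864 bp upstream of the 5′ end. Krt42 had one of 279 bp in intron 4 and one of 315 bp 1340 bp upstream. The region of 459 bp between Krt17 and Krt42 (chr11:100261960-100262418) was centred 1160 bp upstream of Krt17. Krt83 had its region, of 345 bp (chr15:101492807-101493151), 1467 bp upstream.

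The keratin regions were of ordinary width. Their median was 315 bp (95% interval of the median 224 to 420 bp), against 355 bp over the list, and 0 of 27 were over 1000 bp, as 3856 of the 81132 were. Under 200 bp were 6 of 17 regions on chromosome 11 (35.3%, 17.3% to 58.7%) and 0 of 10 on chromosome 15, beside 19.8% of the list. The median G + C content was 54.9% on chromosome 11, 62.8% on chromosome 15 and 51.9% over the list, and the median observed over expected CpG frequency 0.310, 0.559 and 0.30. The chromosome 15 regions thus had the higher values, as the list's promoter and exon regions did, with median G + C contents of 60.6% and 58.1%. Repeats made up over 50% of 0 of the 27 regions (upper limit 12.5%) and of 13.7% of the list.

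**Figure D5:**
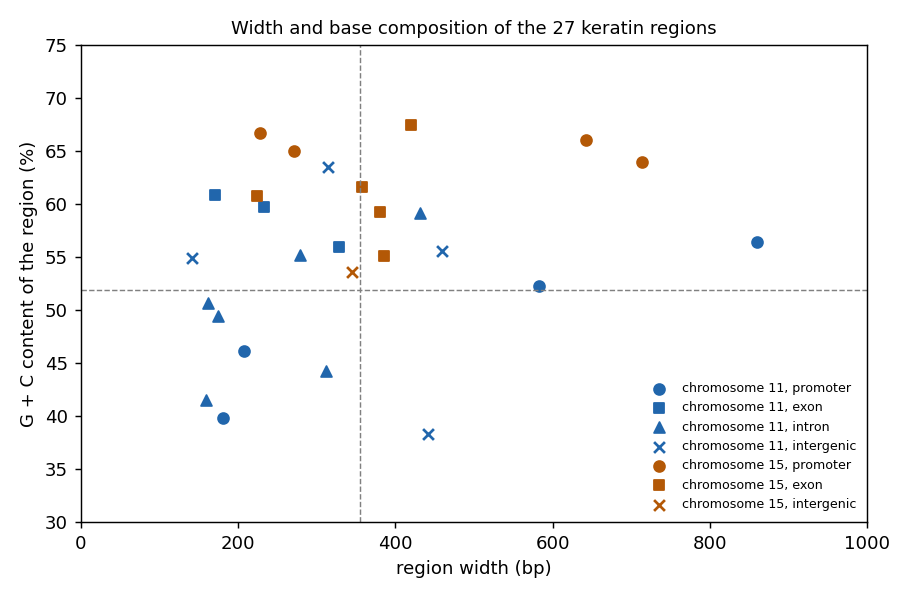
Width in bp and G + C content in % of the 27 keratin regions, by chromosome (colour) and class at the region's centre (marker), with dashed lines at the medians of all 81132 regions, 355 bp and 51.9%. All 10 chromosome 15 regions lie above the G + C line, and 7 chromosome 11 regions lie below it.

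The motif search covered 300 bp around the centre of every region, on both strands. This window runs past the edges of a narrow region, so a counted match can lie outside it. Such matches were the KLF/SP letters at Krt14, Krt80 and the Krt42 intron and the AP-2 letters at Krt23. A match is a description of the letters and not a binding site. The OCT octamer was found in 2 of 27 keratin regions (7.41%, 2.06% to 23.4%), those of Krt222 and the Krt28 intron printed above, and in 2.15% of all regions. The SOX core was in 3 (11.1%, 3.85% to 28.1%), at Krt222, Krt23 and Krt13, and in 12.7% of all. Both were in 1 keratin region, that of Krt222, and in 289 of all regions (0.356%). On chromosome 15, 0 of 10 regions held either motif. Of the motifs of factors that act in epithelia, that of KLF and SP factors was in 9 keratin regions (33.3%, 18.6% to 52.2%) and 25.2% of all, that of AP-2 in 8 (29.6%, 15.9% to 48.5%) and 14.9%, and that of TEAD factors (CATTCC) in 3 (11.1%) and 17.6%. The AP-1 letters (TGANTCA) were in 0 of 27 (upper limit 12.5%) and in 8.53% of all, and the CTCF core in 1 (3.70%) and 5.50%. None of these motifs was in 8 of 27 keratin regions (29.6%) and in 37.6% of all. At 300 bp the interval for the keratins included the share over all regions for each of these 7 motifs except that of AP-2. In the window of 200 bp the exception was the OCT octamer, in 2 keratin regions (7.41%, 2.06% to 23.4%) and 1.55% of all. For AP-2 the share over all regions was outside the interval at 300 bp and inside it in the other windows. In a window of 200 bp its letters were in 5 keratin regions (18.5%, 8.18% to 36.7%) and 10.7% of all, and in whole regions in 8 (29.6%, 15.9% to 48.5%) and 20.4% of all. For whole regions the KLF/SP letters were in 8 keratin regions (29.6%, 15.9% to 48.5%) and 29.3% of all. No share was tested.

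Regions in the clusters that met the rule for no keratin gene numbered 14 of 30 on chromosome 11 and 5 of 15 on chromosome 15. Of these 19, 17 were intergenic. A 358 bp region between Krtap3-1 and Krtap1-5 (chr11:99574046-99574403) held the CTCF core, the SOX core and the AP-2 letters and was the nearest region to several keratin-associated protein genes. Other CTCF core matches were in the 300 bp windows of a 168 bp region 263 bp beyond the 3′ end of Krt28 and a 186 bp region 5810 bp upstream of Krt83. Among the 18 other protein-coding genes inside the chromosome 11 cluster, Gm11563, in the keratin-associated protein part, had a region in its exon, of 241 bp (chr11:99658493-99658733). That part holds 41 protein-coding genes, and those not named Krtap were not counted as keratin-associated protein genes. The 3 other protein-coding genes in the chromosome 15 cluster had none.

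Comparable gene clusters of the skin were set beside the keratins. The keratin-associated protein genes of chromosome 16 had a region at 2 of 24 genes (8.33%, 2.32% to 25.8%), Krtap14 and Krtap15, which share that 1 region, beside the 42.1% of genes under 2 kb, and 9.37 regions per Mb. The cornified envelope genes of chromosome 3, which build the outer layer of the epidermis, had regions at 10 of 44 genes (22.7%, 12.8% to 37.0%), beside the same 42.1%, and 28.0 regions per Mb. The median length of the 44 genes is 1674.5 bp, but they include longer genes, such as Tchh (6748 bp, 3 regions) and Flg (20164 bp, no region). Of genes of 2 to 25 kb, 71.5% had a region. The lists that follow are to be set beside the 78% of all protein-coding genes with a region and the 57.7% with one at the promoter, and the first 2 hold long genes, with median lengths of 20994 and 33704 bp against 17425 bp. Of 16 known regulators of keratin genes, among them Trp63, Klf4, Klf5, Tfap2a, Tfap2c and Grhl2, 15 had regions, all but Ovol1, and 10 had one at the promoter (62.5%). Proteins that anchor or bundle keratin filaments, such as the desmosomal Dsp and Jup and the linker Plec, had regions at 12 of 13 genes, all but Flg, and at the promoter of 10 (76.9%). The markers of pluripotent cells, Pou5f1, Sox2, Nanog, Esrrb, Zfp42, Klf2, Tbx3 and Tfcp2l1, all had regions, with a median of 3, and 5 of 8 had one at the promoter (62.5%). Of the epidermal markers, 4 of 5 had one (Krt14, Krt1, Krt10 and Trp63 but not Krt5) with a median of 1. At the promoter 1 of 5 had one (20%), Krt10, through its internal TSS. Of the other keratins of epidermis named above, Krt17 had 2 regions, and Krt15, Krt2, Krt9, Krt16, Krt6a and Krt6b had none. At a limit of 10 kb Krt15, Krt9 and Krt16 had one, and the nearest regions to the 5′ ends of Krt9 and Krt16 were 5562 bp and 5507 bp away. Of the trophectoderm and simple epithelium markers Krt8, Krt18, Krt7, Cdx2 and Elf5, all 5 had one, with a median of 2, and 2 of 5 had one at the promoter (40%). Not counted there were regions centred 137 bp downstream of the Krt18 TSS and 135 bp downstream of a Krt7 TSS, just outside the limit of 100 bp. Of the other keratins of simple epithelia named above, Krt19 had 2 regions and Krt20 none, also at 10 kb.

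The authors kept reads that aligned to a single place in the genome, so the share of unique sequence at the genes was computed. Of the 75-base stretches at the keratin genes and within 5 kb of their TSSs, 97.3% occurred once in the genome, beside 97.5% at Krt8 and Krt18 and 97.7% in the 1 Mb flanks. The share was 98.7% for the keratins proper of chromosome 11, 97.7% for those of chromosome 15 and 94.3% for the keratin-associated protein genes. In the empty stretch of 346 kb it was 85.1%. Within gene bodies the median was 99.9% for the 20 keratins with a region and 99.4% for the 31 without, with the lowest values at Krt6b (70.4%) and Krt6a (74.1%), both without a region. Among the 23 keratin-associated protein genes the median was 95.9% and the lowest 26.5%, at Krtap4-13. What part sequence present in several copies has in these counts was not tested.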

How the data were processed

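ATAC-seq was done on 12 libraries of G1-sorted SBROS cells, 3 from each population. Per the study's methods, the authors used STAR 2.5.3a for alignment to mm10, keeping reads with a unique position, removed duplicates with Picard, called regions in each library with MACS2 2.1.1.20160309, merged them over all libraries and discarded those overlapping regions of the ChIP-seq input. A shift of the reads for the Tn5 cut is not given in the sources used here. The deposited list holds 3 columns (chromosome, start and end), in bp, with no count, score or library. The 4 ChIP-seq samples were not analysed here.

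From the list, regions were assigned to GENCODE M21 genes by their centres, and classes, widths, base composition, motifs and unique stretches were computed from GRCm38 with Python 3.11.15, numpy 2.4.6, scipy 1.17.1 and numba 0.67.0. Shares have 95% Wilson intervals. Counting and motif search were tested on simulated data. The members and lists were chosen with earlier results of these data known. Named genes were every keratin gene with a region, the genes of each group without one, Krt8, Krt18, the genes next to the clusters and the listed regulators, partners and markers. The split of the background by gene length, the exon positions and the regions of the cluster at no keratin gene were added after the values were seen. Alternatives changed the TSS distance, gene model, overlap, joining, width, motif window, CpG limits and stretch length.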

Additional observations from a re-analysis of the deposited data

How the results depend on the processing

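Of 66 alternatives to 18 results, 53 left a count within 1.5 times its value or a share or median within its 95% interval. Widening the TSS distance to 10 kb raised the chromosome 11 genes with a region from 10 to 18 and their regions from 17 to 27, and took the genes of both clusters from 20 to 31. With gene bodies alone there were 10 regions on chromosome 11, and with regions of at least 200 bp 11. The share of protein-coding genes with a region, 78%, became 74.7% with 1 kb, 81.1% with 10 kb, 66.6% with bodies alone and 76.2% with regions of at least 200 bp. Promoters of 5 kb to both sides took in 23 keratin regions instead of 8. The AP-2 letters were in 5 regions with a window of 200 bp instead of 8. CpG-rich keratin promoters fell from 3 to 1 with limits of 0.75 and 55%, and to 0 with 1000 bp. Unique stretches were 95.4% with 50 bases instead of 97.3%. By construction, a longer distance to the TSS or promoters of 5 kb to both sides can only add to a count. A shorter distance, gene bodies alone, a minimum width or stricter CpG limits can only take from it. The AP-2 letters of Krt23, Krt19 and Krt86 lay 145, 127 and 132 bp from the region's centre, outside the window of 200 bp. For the CpG promoters with 1000 bp the cause was not tested. Counts for chromosome 15 stayed within 1.5 times under every alternative run. Counting every protein-coding gene of the cluster, added after seeing the data, gave 11 genes on chromosome 11 and 10 on chromosome 15.

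No paired analysis was possible because the merged list carries no value per library, and leaving out replicates was not possible for the same reason. The list gives no reads per region, so that the absence of a region does not show closed chromatin, and the rule by centre and distance does not show which gene a region acts on.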
